A study of Mus musculus with 6 samples.

Results

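MicroRNA loci among the E2A-bound regions of mouse neural stem cells are described here. Members were all peaks, in 5 annotated peak lists, whose nearest annotated gene carried a microRNA symbol (Mir followed by a number, or Mirlet7). No binding value entered that choice. There were 1481 such peaks of 91185 in all, and they merged into 494 of 32693 regions named for 180 microRNA gene symbols of 12166 gene symbols.

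E2A is the product of Tcf3, and its splice forms E12 and E47 are basic helix-loop-helix factors that bind the E-box, CANNTG, as dimers. ChIP-seq, the sequencing of DNA recovered by chromatin immunoprecipitation, was used to map E2A in neural stem cells cultured from C57BL/6J mouse embryos at E12.5. Every culture was kept dividing in Neurobasal-A medium with B-27 lacking vitamin A, FGF-2 at 20 ng/ml and EGF at 20 ng/ml, and every library used the same rabbit antibody against E2A after fixation with EGS and formaldehyde. The groups were wild type (wt, 3 libraries), E12 knockout (E12KO, 1 library) and E47 knockout (E47KO, 1 library), and an input library was not analysed here. The antibody is directed at E2A, of which each knockout lacks 1 form, so a peak in E12KO or E47KO cells does not say which form was bound. Nothing in the labels says that the wt libraries came from separate cultures or embryos, so their spread may be technical. With 1 library for each knockout no test between genotypes was possible, and intervals below cover counting error only.

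MicroRNAs are short RNAs cut by Drosha with Dgcr8, and then by Dicer1, from hairpins in longer primary transcripts, and they guide Argonaute proteins to target messages. Bases at the 5′ end of the mature strand, the seed, do most of the target pairing, so genes far apart that share a seed form a family. In neural progenitors miR-9, let-7, miR-125 and miR-124 are known for roles in the passage from proliferation to differentiation, with let-7 processing held back by Lin28. Many microRNA genes lie in introns of other genes or in long host transcripts, so the start of the hairpin is often not the start of transcription.

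Mature sequences are shown for families in which several genes share a seed and are described below, taken from RefSeq (GRCm38.p6), 5′ to 3′, with the seed (bases 2 to 8) in capitals. Of the 180 genes, 157 had a mature sequence there. Counting both arms, they carried 222 seeds, and 31 seeds were shared by more than 1 gene.

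miR-9-5p (Mir9-1, Mir9-2, Mir9-3): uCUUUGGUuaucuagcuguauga
let-7a-5p (Mirlet7a-1): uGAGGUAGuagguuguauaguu
let-7c-5p (Mirlet7c-2): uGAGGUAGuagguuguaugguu
let-7i-5p (Mirlet7i): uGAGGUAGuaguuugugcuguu
miR-125b-5p (Mir125b-1, Mir125b-2): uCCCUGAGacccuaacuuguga
miR-181a-5p (Mir181a-1, Mir181a-2): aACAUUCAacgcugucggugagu
miR-181c-5p (Mir181c): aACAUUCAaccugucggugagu
miR-29a-3p (Mir29a): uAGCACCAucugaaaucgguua
miR-29b-3p (Mir29b-1): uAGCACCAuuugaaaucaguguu
miR-99a-5p (Mir99a): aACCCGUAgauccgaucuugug
miR-99b-5p (Mir99b): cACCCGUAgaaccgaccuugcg
miR-135a-5p (Mir135a-1, Mir135a-2): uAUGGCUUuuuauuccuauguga

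A wt consensus region was a merged region with a peak in at least 2 of the 3 wt lists. The genes shown held 52 of the 212 wt consensus regions. The let-7 seed GAGGUAG was shared by 5 named genes. The 3 shown were the nearest gene of 13 wt consensus regions, and Mirlet7b and Mirlet7c-1 of 0. Mirlet7b lies beside Mirlet7c-2, and Mirlet7c-1 beside Mir99a, so regions near these 2 hairpins can carry the neighbour's name. The miR-9-5p seed CUUUGGU was shared by 3 genes with 10 such regions. The seeds ACAUUCA (miR-181) and CCCUGAG (miR-125b) each marked genes with 9 such regions, and AGCACCA (miR-29) marked genes with 6. The 3 Mir9 hairpins are printed because all 3 loci were bound and give the same mature strand. Capitals mark miR-9-5p.

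Mir9-1: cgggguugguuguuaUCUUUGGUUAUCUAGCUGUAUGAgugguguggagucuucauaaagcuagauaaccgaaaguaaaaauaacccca
Mir9-2: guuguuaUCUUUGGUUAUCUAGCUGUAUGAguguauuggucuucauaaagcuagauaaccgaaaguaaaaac
Mir9-3: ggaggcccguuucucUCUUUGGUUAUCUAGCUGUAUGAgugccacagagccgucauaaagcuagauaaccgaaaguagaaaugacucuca

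The 3 wt lists held 117, 233 and 388 microRNA peaks (replicates 1, 2 and 3), the E12KO list 383 and the E47KO list 360, from lists of 6814, 12772, 24194, 25229 and 22176 peaks. The shortest list held the fewest, and the 3 longest lists held similar numbers. As a share of each list they made up 1.72%, 1.82% and 1.60% in wt (1.72% ± 0.110, SD, n = 3), 1.52% in E12KO and 1.62% in E47KO. The E47KO share lay inside the wt range and the E12KO share just below its lower end. The lists named 67, 113, 156, 145 and 144 microRNA genes, of which 56 had a peak in every list. The latter count was not made over all genes. No read totals come with the lists, so the depth of each library is unknown.

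**Figure D1:**
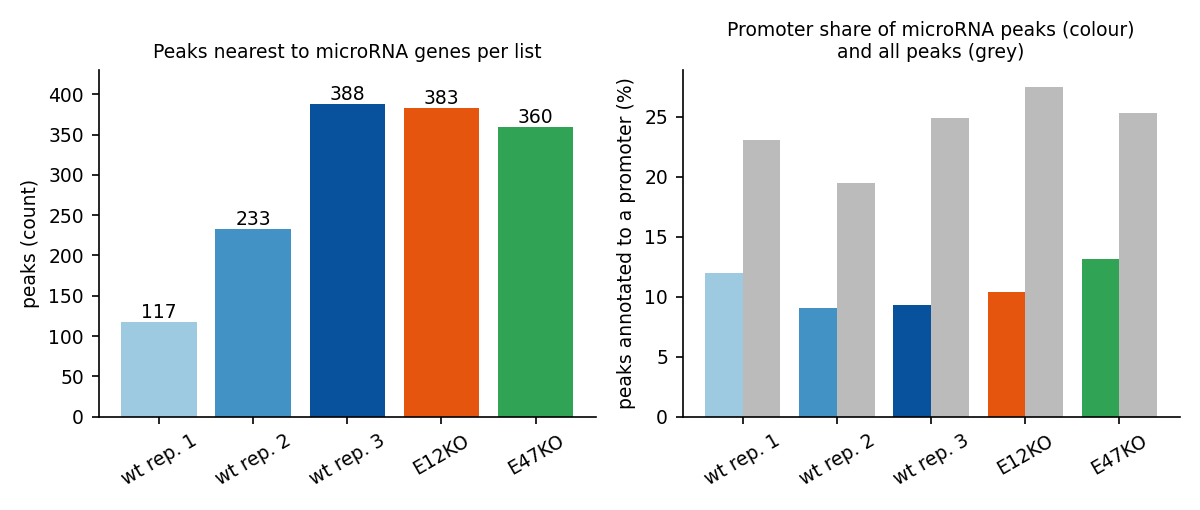
Left, number of E2A peaks nearest to a microRNA gene in each of the 5 lists (bars, counts). Right, percent of peaks annotated to a promoter, with microRNA peaks in colour and all peaks of the same list in grey. The microRNA bars (9.01% to 13.1%) were lower than the grey bars (19.5% to 27.5%) in each of the 5 lists.

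Of the 494 microRNA regions, 212 were wt consensus regions (42.9%, 95% Wilson interval 38.6% to 47.3%), beside 37.4% of all regions. They made up 212 of the 12231 wt consensus regions (1.73%, 1.52% to 1.98%). A total of 85 regions had a peak in all 5 lists (17.2%, beside 12.7% of all regions), and 123 had a peak in 1 list (24.9%, beside 28.4%). The most frequent pattern was absence from wt replicate 1, with a peak in each of the other 4 lists, in 105 regions (21.3%, beside 19.1% of all regions). The list of wt replicate 1 is the shortest, and the false discovery rate label in its deposited name reads as a stricter one than that of the other 4 lists, so its absences cannot be told apart from a difference in threshold. Wt consensus regions were annotated to 108 microRNA genes. At 48 of them a consensus region lay within 10 kb of the annotated start, which is 26.7% of the microRNA genes named, beside 32.0% of all genes named. Those 48 were 4.02% of the 1193 microRNA genes of the RefSeq table, while 16.8% of its protein-coding genes had such a region. Peaks were named from mm9 gene models. A RefSeq microRNA gene without such a model, or whose peaks took the name of a host gene, could not be counted. The 4.02% is therefore not a share of bound genes that can be set against the 16.8%.

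The scores of wt replicate 1 were the authors', and the other 4 lists hold none. MicroRNA peaks there had a median fold enrichment over background of 7.94 (quartiles 5.94 and 10.8), beside 7.48 for the whole list. The highest was 41.1, and it ranked 90th of 6814 by −log10 q. Of the 117 microRNA peaks, 11 were in the top 10% of the list by that score (9.40%, beside 9.99% of all peaks).

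Of the 212 wt consensus regions, 14 covered the start in any of the 5 lists (6.60%, beside 19.7% of all wt consensus regions). A start counted as covered only by a peak that named its gene. The Mir219a-1 region, whose start was covered only by a peak named for Ring1, was therefore not among the 14. A wt peak covered the start in 12 (5.66%, beside 18.3%), and peaks of at least 2 wt lists did in 5 (2.36%, beside 13%). Within 10 kb lay 59 (27.8%, beside 38.2%). Their median distance was 28.4 kb (quartiles 7.92 and 78.4 kb, maximum 670 kb), beside 21.0 kb. Beyond 100 kb lay 38 regions (17.9%, beside 18%). Fewer microRNA regions than regions in general thus lay at the annotated start, and the shares came together at long range. These shares were not tested, since microRNA regions are part of the whole. Promoter annotation was rarer in each of the 5 lists, with 12%, 9.01% and 9.28% of microRNA peaks in wt (10.1% ± 1.63, SD, n = 3), 10.4% in E12KO and 13.1% in E47KO. Over all peaks of those lists the promoter share was 23.1%, 19.5% and 24.9% in wt (22.5% ± 2.75, SD, n = 3), 27.5% in E12KO and 25.3% in E47KO.

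The start used depends on the gene model. For 176 of the 212 regions the annotated model was a hairpin of at most 200 bp, and 7 of these regions covered the start in any list (3.98%). For the other 36, named for 12 genes, the model was longer than 200 bp, and 7 covered the start (19.4%). These 7 included 3 regions of Mir99ahg. Mir181a-1, with a model of 264 bp, held 7 of the 36 regions, so the longer models are few and mixed. Within 10 kb lay 46 of the 176 regions (26.1%) and 13 of the 36 (36.1%). Peaks that covered part of the hairpin itself were few. They numbered 3 of 99, 2 of 195 and 12 of 333 in wt, 18 of 332 in E12KO and 18 of 310 in E47KO, counting peaks with a hairpin model.

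**Figure D2:**
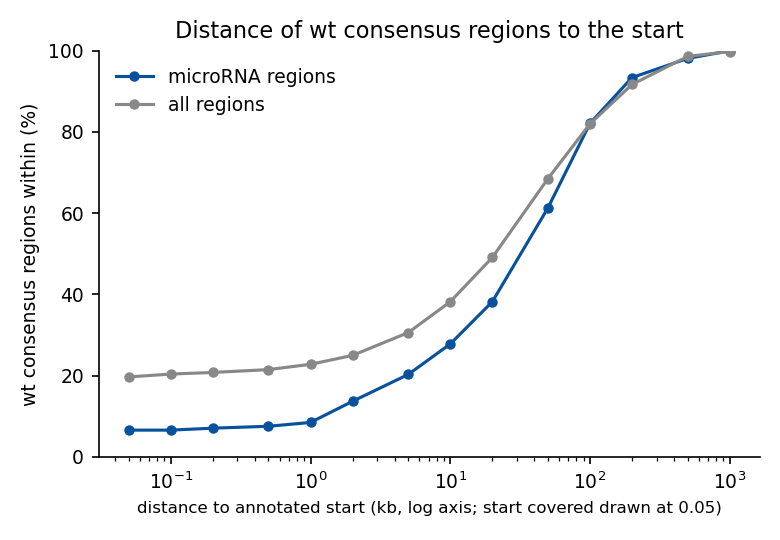
Cumulative percent of wt consensus regions (vertical axis) within a given distance of the annotated start (kb, log axis) for the 212 microRNA regions (blue) and all 12231 regions (grey). The blue line starts at 6.60% and the grey line at 19.7%, for regions where a peak of any list covers the start of the gene it names. The lines meet near 100 kb, where both are at about 82%.

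Of the 212 regions, 114 lay upstream of the annotated start (53.8%) and 84 downstream (39.6%). The annotation placed 89 between genes (42.0%, beside 35.7% of all wt consensus regions), 86 in introns (40.6%, beside 35.2%), 18 in promoters (8.49%, beside 22.3%) and 14 in exons (6.60%, beside 3.46%). The annotation text put 78 of them inside another named gene (36.8%), a share that was not counted over all wt consensus regions. Cables1 held 8 of the 494 merged regions, all nearest to Mir1901. Hmga2 held 7 nearest to Mir763, and Ppm1h held 7 nearest to Mirlet7i, of which 6 were wt consensus. Hmga2, a chromatin protein of progenitors, is a known let-7 target, but the microRNA nearest to its regions was Mir763.

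The number of regions differed between genes. A single region was found at 84 of the 180 genes, while 32 genes with at least 5 regions held 243 of the 494. The same counts were not made over all genes, so whether this spread is particular to microRNA genes was not tested. Mir125b-1 had 16 regions, Mir9-3 had 15, Mir181a-1 had 13 and Mir3089 had 12, together 56. The nearest-gene annotation names 1 hairpin of a cluster, so a neighbour may carry the name. Joining gene models within 10 kb turned the 180 symbols into 172 loci, and 9 loci held several symbols. Mir684-1 is the 1 symbol placed on more than 1 chromosome.

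The miR-9 genes had 25 regions, of which 10 were wt consensus and 7 were in all 5 lists. They held 10, 16 and 21 peaks in wt, 20 in E12KO and 20 in E47KO, and all 10 consensus regions had a peak in both knockouts. At Mir9-3 the strongest region, chr7:86675836-86677297 (mm9, as are all peak positions here), lay in an exon of the longer annotated Mir9-3 transcript, 25686 bp downstream of the hairpin start. Its peaks were 1068, 1068 and 1337 bp wide in wt, 1265 bp in E12KO and 1420 bp in E47KO, with 27.6-fold enrichment in wt replicate 1. The E12KO width lay inside the wt range and the E47KO width above it. A neighbour on each side, chr7:86670442-86671675 in an intron and chr7:86679000-86681748 mostly beyond the end of the transcript, was also in all 5 lists, each with 19.1-fold enrichment. In the latter only the wt replicate 3 peak reached the transcript, which ends at chr7:86679289.

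The start of the longer Mir9-3 transcript was covered by a peak in 3 lists and lay 27 bp from a peak in wt replicate 2. Its region, chr7:86643817-86645949, held peaks of 226 bp in wt replicate 2, 1541 bp in wt replicate 3, 1571 bp in E12KO and 2133 bp in E47KO, and none in wt replicate 1. The transcript starts 5147 bp before the hairpin in mm9, and the first start of Mir9-3hg in RefSeq lies 5238 bp before it in GRCm38.p6, so both mark nearly the same place. That promoter, from 250 bases before to 50 after the start, held 1 E-box (CAGGTG, in capitals). It is printed because peaks covered the start and because this start was matched between the builds. The later RefSeq start of Mir9-3hg and the Mir99ahg start held 0 E-boxes in the same window, which says only that these letters are not there. Peaks also covered the mm9 starts of Mir670 and Mir22hg. Each RefSeq promoter of Mir670hg held 1 E-box (CATATG), and that of Mir22hg held 1 (CAGTTG). Those starts were not matched between the builds. CANNTG, read on both strands, occurs in 72.3% of the 32851 RefSeq promoters of this length, and CACCTG or its reverse complement CAGGTG in 20.2%.

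Mir9-3hg promoter (GRCm38.p6, plus strand): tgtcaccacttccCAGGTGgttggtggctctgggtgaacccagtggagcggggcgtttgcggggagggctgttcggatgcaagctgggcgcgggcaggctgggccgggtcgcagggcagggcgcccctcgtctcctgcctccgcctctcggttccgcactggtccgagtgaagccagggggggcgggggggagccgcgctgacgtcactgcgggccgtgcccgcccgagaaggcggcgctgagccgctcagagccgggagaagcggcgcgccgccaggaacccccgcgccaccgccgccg

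At Mir9-2 the merged consensus region chr13:83876731-83880145 spanned the hairpin start. The E12KO and E47KO peaks covered it, while the nearest wt peaks lay 722, 458 and 96 bp away. Its widest peaks were 578, 1067 and 1611 bp in wt, 3293 bp in E12KO and 3319 bp in E47KO, with 10.0-fold enrichment in wt replicate 1. Both knockout peaks were wider than any wt peak there, in lists whose median microRNA peak was 638 bp (E12KO) and 597.5 bp (E47KO) against 468, 440 and 571 bp in wt. At Mir9-1 no peak covered the hairpin. Its 2 consensus regions lay downstream and were in all 5 lists. The nearer, chr3:88023488-88027416, began 3968 bp from the hairpin start and was 22.5-fold enriched, with widest peaks of 1495, 1847 and 2984 bp in wt, 3695 bp in E12KO and 3172 bp in E47KO. The farther, chr3:88028591-88037434, began 9071 bp away and was 10.8-fold enriched, with widest peaks of 587, 2219 and 6001 bp in wt, 8516 bp in E12KO and 4551 bp in E47KO.

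Mir3093 belongs to the Mir9-1 locus. Its annotated model, chr3:88018407-88025782, contains the Mir9-1 hairpin at chr3:88019520-88019608. A consensus region at the start of that model, chr3:88017511-88019004, was absent from wt replicate 1 and had widths of 520, 1127, 1205 and 1122 bp in the other 4 lists. Another at chr3:88008197-88011718, 6689 bp upstream, was in all 5 lists with 10.8-fold enrichment. The Mir9-1 hairpin was therefore flanked by consensus regions on both sides, none of which overlapped it.

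**Figure D3:**
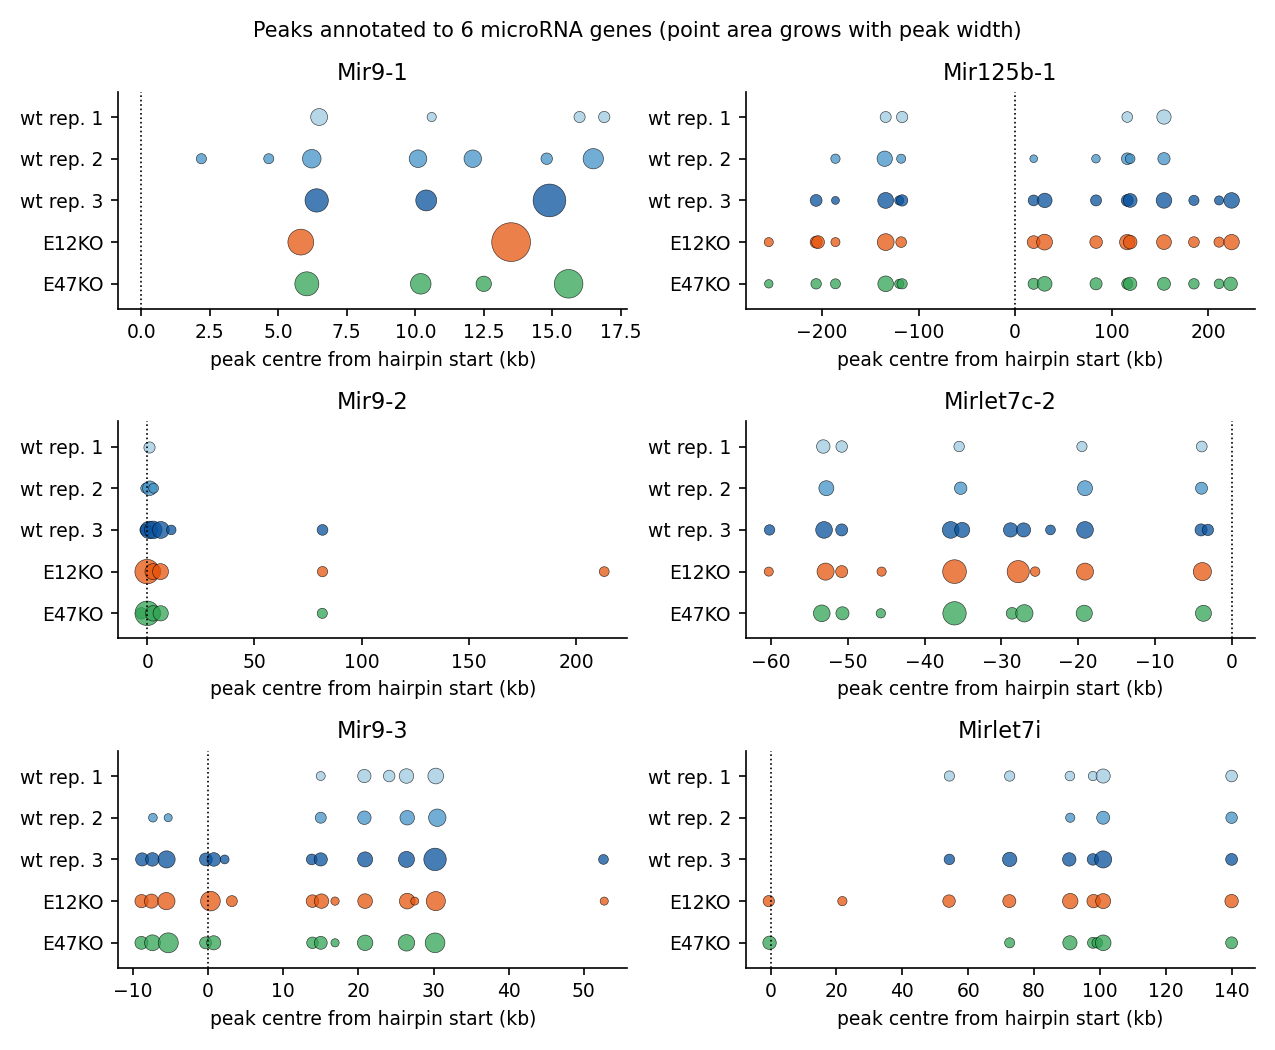
Peak centres relative to the hairpin start (kb, horizontal axis, dotted line at 0, positive values downstream) for 6 microRNA genes, with 1 row per list and point area growing with peak width. At Mir9-1 and Mirlet7i the wt peaks all lay downstream of the hairpin and at Mirlet7c-2 all peaks lay upstream, while at Mir9-2 and Mir9-3 some peaks covered the hairpin start.

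The let-7 genes had 24 regions, 13 of them wt consensus and 8 in all 5 lists, with 13, 9 and 22 peaks in wt, 20 in E12KO and 19 in E47KO. Mirlet7c-2 had 5 consensus regions, all upstream. The strongest of them, chr15:85482929-85484859, ended 52174 bp before the hairpin, was 25.5-fold enriched and held peaks of 896, 1146 and 1456 bp in wt, 1537 bp in E12KO and 1459 bp in E47KO. The nearest, chr15:85532344-85534239, ended 2794 bp before the hairpin and was 8.90-fold enriched. Mirlet7i had 6 consensus regions, 53.8 to 139 kb downstream of the hairpin, all in introns of Ppm1h, a phosphatase gene. The strongest, chr10:122320517-122322074, was 18.8-fold enriched, with peaks of 998, 831 and 1536 bp in wt, 1149 bp in E12KO and 1273 bp in E47KO. The Mirlet7i region nearest to the hairpin of these 6, chr10:122368189-122368957, had peaks in wt replicates 1 and 3 (458 and 491 bp) and E12KO (754 bp), and none in wt replicate 2 or E47KO.

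The miR-125 genes had 21 regions and 9 wt consensus regions, none within 10 kb of an annotated start. Of the 16 Mir125b-1 regions, 8 were wt consensus and 4 were in all 5 lists. The strongest, chr9:41543601-41544909, began 153592 bp downstream of the hairpin and was 33.7-fold enriched, the highest value among microRNA peaks in wt replicate 1 apart from Mir3089. Its peaks were 1031, 715 and 1253 bp wide in wt, 1117 bp in E12KO and 822 bp in E47KO, so both knockouts lay inside the wt range. A region upstream of the longer Mir125b-1 model, chr9:41254773-41256256, was also in all 5 lists (9.27-fold). Mir125b-2 had 1 consensus region, chr16:77851707-77853354, in all 5 lists, 205189 bp downstream and 10.5-fold enriched.

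Mir99a, Mirlet7c-1 and Mir125b-2 share the host transcript Mir99ahg on chromosome 16, whose models have 3 annotated starts, each within a merged wt consensus region. The first, chr16:77236103-77238471, was in all 5 lists, but only the E12KO and E47KO peaks covered the start, and the wt peaks lay 640, 455 and 41 bp from it. It held peaks of 312, 733 and 1761 bp in wt, 2369 bp in E12KO and 2167 bp in E47KO. The second, chr16:77329274-77330661, had peaks in wt replicates 2 and 3 (552 and 537 bp) and E12KO (1388 bp), and none in wt replicate 1 or E47KO. Its start was covered in wt replicate 3 and E12KO and lay 237 bp from the wt replicate 2 peak. The region beside it, chr16:77331236-77331757, showed the same pattern with narrow peaks of 223, 375 and 522 bp. The third, chr16:77500146-77501135, was in every list except wt replicate 1, with the start covered in wt replicate 3 and E47KO. Close to the hairpins, chr16:77593239-77595134 lay 4047 bp upstream of Mir99a in an exon of the host, was in all 5 lists and was 24.4-fold enriched. The chromosome 17 gene of the same seed, Mir99b, had a consensus region ending 1064 bp upstream, present in all lists but wt replicate 2, with peaks of 559 and 2643 bp in wt, 2357 bp in E12KO and 2178 bp in E47KO (8.54-fold).

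The neural microRNA list of 27 families and clusters, with 133 loci, had 18 families named by a peak and 16 with a wt consensus region. For 9 families a consensus region lay within 10 kb of a member. The list held 141 of the 494 regions (28.5%) and 70 of the 212 consensus regions (33.0%). All 70 had a peak in E12KO and 67 in E47KO, near the shares of all wt consensus regions with a peak there (96.6% and 93.6%). The 3 without an E47KO peak were the Mirlet7i region and both Mir99ahg regions given above. Of the 133 loci, 14 had a consensus region within 10 kb (10.5%, beside 4.02% of all RefSeq microRNA genes, with the limit on that share given above). No peak named the mir-106b-25, mir-106a-363, mir-302, mir-290 or mir-379 clusters, nor mir-137, mir-195, mir-204 or mir-338. A microRNA inside a host gene, or beside a hairpin that is not on the list, may be bound under that other name. Such peaks are not counted here, so these loci cannot be called unbound.

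**Figure D4:**
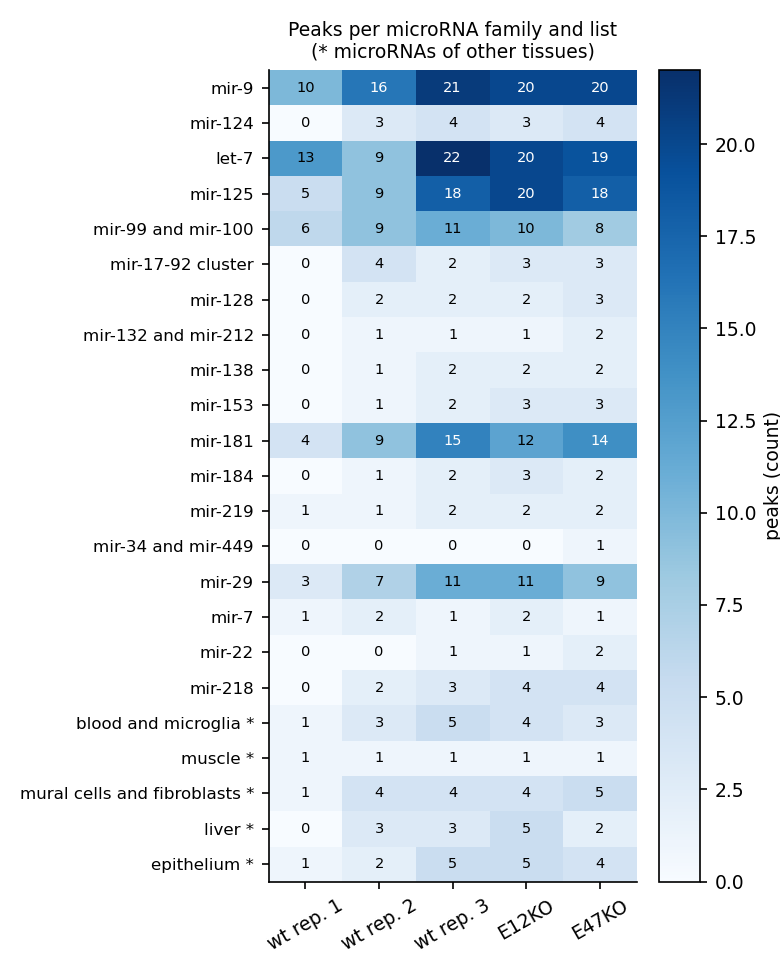
Number of peaks (colour and printed count) annotated to members of each family on the microRNA lists that was named at least once, with the 5 lists across; families marked with an asterisk belong to other tissues. Counts were highest for mir-9, let-7, mir-125 and mir-181, reaching 22 for let-7 in wt replicate 3.

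The miR-181 genes had 15 regions, 9 of them wt consensus and none of those within 10 kb. Mir181a-1 accounted for 13 regions, 10 of them between genes. The miR-29 genes, which act late in neuronal maturation, had 12 regions and 6 wt consensus regions. The strongest of these, chr6:31108449-31109720, was 95356 bp upstream of Mir29b-1 and 19.6-fold enriched, with peaks of 661, 595 and 1096 bp in wt, 1165 bp in E12KO and 970 bp in E47KO. Mir124a-3, a gene of the neuron-enriched miR-124, lay within chr2:180627480-180629901, with widest peaks of 700 and 2329 bp in wt replicates 2 and 3, 1471 bp in E12KO and 1380 bp in E47KO, and none in wt replicate 1. Its start was covered in wt replicate 3 and both knockouts, and the wt replicate 2 peak ended 566 bp from it. Mir132, an activity-regulated neuronal gene, had its start covered by chr11:74986309-74987580 in wt replicates 2 and 3 and both knockouts. At Mir17, first hairpin of the proliferation-associated mir-17-92 cluster, a region 1026 bp upstream (chr14:115441157-115441867) held peaks of 365 and 585 bp in wt replicates 2 and 3, 711 bp in E12KO and 541 bp in E47KO. All 3 of these loci lacked a peak in wt replicate 1, whose list is the shortest and labelled differently.

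A total of 18 wt consensus regions lay within 1 kb of an annotated start. Those of Mir9-2, Mir9-3, Mir3093, Mir124a-3, Mir132 and the 3 of Mir99ahg are described above. Mir92b, a microRNA of cortical progenitors, lay in chr3:89029462-89032627, a region in all 5 lists, with widest peaks of 361, 988 and 2890 bp in wt, 2168 bp in E12KO and 1957 bp in E47KO (9.26-fold). Peaks covered its start in wt replicate 3 and both knockouts and lay 911 and 172 bp away in wt replicates 1 and 2. Mir670 had its start covered by chr2:94103180-94106805 in all 5 lists (15.4-fold), and Mir2861 by chr2:32567715-32569215 in 4 (21.9-fold), with the wt replicate 2 peak 185 bp away. Mir219a-1, known for its role in oligodendrocyte maturation, lay within chr17:34160776-34163724, a region in all 5 lists (6.74-fold) whose peaks named Mir219a-1 or its neighbour Ring1. The E12KO peak, named for Ring1, covered the Mir219a-1 start, and the nearest peaks lay 357, 127 and 104 bp away in wt and 180 bp in E47KO. The remaining 6 were those of Mir133b, Mir1936, Mir1894, Mir1953, Mir1895 and Mir1903.

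Among the strongest regions in all 5 lists, the first by −log10 q was 27079 bp upstream of Mir3089 at chr2:30547503-30549651. It was 41.1-fold enriched, with widest peaks of 986, 1254 and 1935 bp in wt, 2149 bp in E12KO and 2004 bp in E47KO. Mir135a-1, which shares the seed AUGGCUU with Mir135a-2, had chr9:106028977-106029962 at 21056 bp upstream (17.8-fold), with peaks of 663, 527 and 705 bp in wt, 956 bp in E12KO and 665 bp in E47KO. Counting the regions of Mir9-3, Mirlet7c-2, Mir9-1, Mir125b-1, Mir99a, Mir29b-1 and Mirlet7i, 9 of the 12 strongest carried neural list names, beside 33 of the 85 regions in all 5 lists (38.8%). The list and the ranking were both chosen with earlier results known, and the difference was not tested.

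The knockout lists held nearly all wt consensus regions at microRNA genes. Of 212, 206 had a peak in E12KO (97.2%, 94.0% to 98.7%), beside 96.6% of all wt consensus regions. In E47KO 200 had a peak (94.3%, 90.4% to 96.7%), beside 93.6%. Both shares lay close to the share over all regions. No peak was found for 3 regions in E12KO only (1.42%, beside 1.52% of all wt consensus regions) and for 9 in E47KO only (4.25%, beside 4.55%). For 3 more, both knockouts lacked a peak (1.42%, beside 1.88%).

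The comparison between wt lists gave the scale for this. Of the 97 microRNA regions shared by wt replicates 1 and 3, 88.7% had a peak in wt replicate 2, 97.9% in E12KO and 94.8% in E47KO. Over all regions shared by that pair the shares were 77.1%, 95.9% and 92.7%. Of the 201 microRNA regions shared by wt replicates 2 and 3, 42.8% had a peak in wt replicate 1, 98.0% in E12KO and 96.0% in E47KO (all regions 38.7%, 98.2% and 96.0%). Of the 86 microRNA regions shared by wt replicates 1 and 2, 100% had a peak in wt replicate 3, 100% in E12KO and 98.8% in E47KO (all regions 98.9%, 99.3% and 98.0%). In the first 2 of these lookups the held-out wt list, shorter than either knockout list and in the second case labelled with another false discovery rate, missed more regions than the knockouts did. In the last, wt replicate 3 missed none of the 86 microRNA regions and E47KO missed 1.

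**Figure D5:**
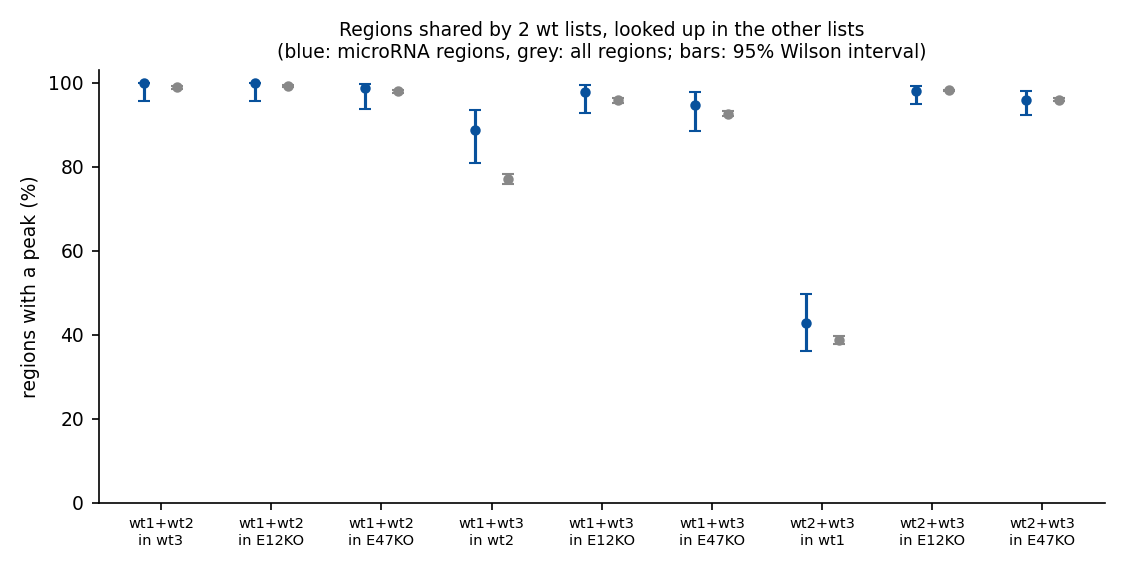
Percent of regions shared by a pair of wt lists that had a peak in each other list (points, with 95% Wilson intervals), for microRNA regions (blue) and all regions (grey). The values in E12KO and E47KO stayed at or above 92.7% in each pair, and the lowest points were those in wt replicate 1, at 42.8% and 38.7%.

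Of the 86 regions in all 3 wt lists, 86 had a peak in E12KO (100%, beside 99.6% of all such regions) and 85 in E47KO (98.8%, beside 98.4%). The exception was chr2:117036260-117036912, 25397 bp downstream of Mir674. It had peaks of 530, 427 and 610 bp in wt (13.3-fold, −log10 q 48.8) and 328 bp in E12KO, with none in E47KO. The 3 regions missing from both knockouts were in 2 wt lists each. At Mir149, in an intron of the glypican gene Gpc1, peaks of 391 and 432 bp lay in wt replicates 1 and 3, 1414 bp upstream of the hairpin (11.4-fold). At Mir139 they were 280 and 516 bp wide in the same lists (5.94-fold), and at Mir3475 228 and 263 bp wide in wt replicates 2 and 3. Of the 15 regions missing from a knockout, 14 were in 2 wt lists, so a wt list missed each of these as well.

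In the other direction, 24 microRNA regions had a peak in both knockouts and in no wt list (4.86%, beside 4.41% of all regions). Their median merged width was 479 bp, against 981.5 bp for microRNA wt consensus regions. The latter can merge peaks of up to 5 lists, so these widths are not on an equal footing. Of the 24, 6 were annotated to promoters (25%, beside 35.5% of all regions of this pattern). The widest included promoter regions of Mir101a (1380 bp in E12KO and 711 bp in E47KO), Mir802 (1272 and 834 bp), Mirlet7i (583 and 890 bp), Mir181a-1 (662 and 336 bp) and Mir148a (627 and 675 bp), and a Cux1 intron nearest to Mir721 (672 and 572 bp). These regions came from lists longer than wt replicates 1 and 2, and E12KO is also longer than wt replicate 3. Whether list length accounts for them was not tested.

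MicroRNAs typical of other cell types were looked up as well, although a peak shows binding and not expression. Of 34 loci typical of blood and microglia, muscle, endothelium, mural cells and fibroblasts, liver or epithelium, 9 were named, with 21 regions (4.25% of 494) and 13 wt consensus regions (6.13% of 212). A consensus region lay within 10 kb at 2 of them (5.88%). One was Mir133b, a muscle microRNA, with chr1:20668019-20668539 552 bp upstream in all 5 lists (11-fold). The other was Mir145a of mural cells. The endothelial Mir126 was named by no peak, and the blood and microglial Mir155 had 3 consensus regions, the nearest of them 50541 bp upstream.

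The genes that make and use microRNAs form a further list of 25, none of them members. A wt consensus region lay within 10 kb of 7 (28.0%, beside 16.8% of protein-coding genes), and none of these regions was in all 5 lists. Dgcr8 (the partner of Drosha), Tnrc6b (which links Argonaute to silencing) and Ddx5 (a helicase of the Drosha complex) had a region at the start in every list except wt replicate 1. The start itself was covered in wt replicates 2 and 3 and both knockouts at Ddx5, while at Dgcr8 and Tnrc6b the wt replicate 2 peak lay 620 and 1031 bp away. Dicer1 had a region ending 1432 bp upstream in the same 4 lists. Ago2 had a region at its start in every list except wt replicate 2 (10.8-fold), with the start covered in wt replicates 1 and 3 and the knockout peaks 39 and 8 bp away. Tut4, which tails let-7 precursors, had its start covered in wt replicates 1 and 3 and E12KO (7.58-fold), with no peak in wt replicate 2 or E47KO. Trim71, a let-7 target, had a region 9316 bp downstream in every list except wt replicate 2 (7.12-fold). Drosha, Xpo5, Lin28a and Lin28b were named by no peak.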

How the data were processed

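Peak lists for 5 libraries were analysed (wt replicates 1, 2 and 3, E12KO and E47KO). The submitters' processing notes name the aligner BWA 0.7.13, the peak caller MACS2 2.1.0, Picard 1.119 and the mm9 build. Of the settings, only a false discovery rate label in the deposited names was known here, written as a stricter one for wt replicate 1 than for the other 4 lists. Each list was deposited for a single library and gives each peak's position, feature, nearest gene and distance, per the file headers. Scores exist only in the deposited table of wt replicate 1, from the authors' peak caller: the −log10 p and −log10 q, a fold enrichment (ratio over background) and a pileup signal (coverage height). Its lowest −log10 q was 2.07. For the remaining lists the label could not be checked against scores. A looser threshold lengthens a list and lowers its count of missing regions.

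Peaks of all 5 lists overlapping by at least 1 bp were merged. A microRNA region holds at least 1 member peak. Distance runs from the nearest peak edge to the annotated start, 0 where covered. Widths are those of the widest peak of a list in a region, unless called merged, and folds those of its strongest wt replicate 1 peak. Shares have 95% Wilson intervals, and merging was tested on simulated peaks. Python 3.11.15, pandas 2.3.3 and scipy 1.17.1 were used. MicroRNA sequences and gene classes came from RefSeq tables (GRCm38.p6) by gene identifier, and promoters by symbol. No coordinates were converted, so a printed promoter can differ from the mm9 strain sequence. Sequences under peaks were not analysed here. Named were the 12 strongest regions in all 5 lists, regions in all 3 wt lists missing from a knockout, the 6 widest in both knockouts only, the 4 genes with most regions, wt consensus regions within 1 kb of a start, and bound members of the microRNA and biogenesis lists; other regions of those genes, and those missing from a knockout, were named after their values were seen. Members and lists were chosen with earlier results of these data known.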

Additional observations from a re-analysis of the deposited data

How the results depend on the processing

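Of 79 alternative values, 60 stayed within the limits set for the main value (1.5 times a count, or the interval of a share) and 19 moved. Leaving out each wt library in turn gave 86 to 201 consensus regions in place of 212, microRNA shares of 1.77% to 2.01% of all consensus regions in place of 1.73%, 23 to 43 genes within 10 kb in place of 48, 97.9% to 100% of regions found in E12KO and 94.8% to 98.8% in E47KO, 85 to 190 regions in all remaining lists in place of 85, and 24 to 111 regions in both knockouts and no remaining wt list in place of 24. The 86 came without wt replicate 3, the 190 without wt replicate 1 and the 111 without wt replicate 3. With a wt list left out, a consensus region needed a peak in both remaining wt lists. That rule is stricter than 2 of 3, so the library and the rule changed together. Asking for a peak in all 3 wt lists gave 86 regions, 2.03%, 23 genes, 100% in E12KO and 98.8% in E47KO. With a limit of 2 kb in place of 10 kb there were 24 genes, with 50 kb 85 and with no limit 108. Chosen after seeing the data, models of at most 200 bp gave a share of 1.45%, and asking for the start to be covered by a wt peak or in 2 wt lists gave 12 and 5 regions in place of 14. No paired analysis was possible because each knockout has 1 library and no test was made. Read depth per library is unknown, so a missing peak may be a region below the threshold of that list.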

Other observations

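Of the 112 microRNA regions with a wt replicate 1 peak, 15 were in no other list (13.4%, beside 12.7% of all regions of that list). Their median fold enrichment was 6.76, against 8.54 for the 97 found elsewhere; over all regions the medians were 6.10 and 7.78. The region nearest to Mir3089 at chr2:30532411-30533146 stood out among the 15. Its peak was 736 bp wide, 22.6-fold enriched and ranked 416th of 6814 by −log10 q (76.7), and none of the other 4 lists had a peak there. The next of the 15 reached 9.26-fold. Why the region is absent from the other lists was not tested.

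Mir22hg, the host transcript of Mir22, had its start covered by peaks of 2455 bp in wt replicate 3, 1471 bp in E12KO and 906 bp in E47KO at chr11:75274011-75276810, and by none in wt replicates 1 and 2, so it was not a wt consensus region.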
